A study of Mus musculus with 6 samples.

Results

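The unfolded protein and amino acid stress genes are 34 genes of the endoplasmic reticulum (ER) folding machinery and of the stress response that controls it. They were chosen by gene name in the count table, with no measured value in the rule. Earlier results of these data were known when they were chosen. All 34 names were among the 56748 genes listed, and all 34 were among the 17146 genes with enough counts to be tested. The table holds 35 rows under these names, because a second entry for Ddit3 with 0 counts in all 6 libraries stands beside the main one and was not tested. The members were split by role into 11 ER chaperones and their partners, 4 disulfide isomerases, 4 genes of ER-associated degradation, 6 stress sensors and transcription factors, 4 stress response targets, and 5 enzymes of amino acid and one-carbon metabolism.

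Osteocytes, the cells embedded in mineralized bone, were isolated from mouse long bones, cultured for 7 days and profiled by bulk RNA sequencing, with 3 libraries from wild type (WT) mice and 3 labelled cKO. According to the methods, osteocytes came from C57BL/6 mice 7 weeks of age, and cKO mice were Gsdmd fl/fl; DMP1-Cre, so that Cre recombinase from the dentin matrix protein 1 promoter is meant to remove floxed exons of Gsdmd, the gene of the pore-forming protein gasdermin D, in osteocytes. Neither source says whether the 3 libraries of a group came from separate mice, so that the p-values measure the spread between these libraries, which may be technical. Both groups had received lipopolysaccharide (LPS, 10 ng/mL, 3 h) and then aluminum hydroxide (20 µg/mL, 3 h), a sequence used to set off pyroptosis, a lytic form of cell death. Cells without stimulation were not analysed here, and the values set the 2 labelled genotypes side by side under stimulation without measuring the stress response itself. The counts on genes summed to between 39566835 and 49734046 per library, and each member held between 253 and 104067 counts in a library. Levels are given as CPM, the counts per 1000000 of the library total after TMM scaling, and differences as log2 fold changes of cKO over WT. Each gene was tested by the quasi-likelihood method of edgeR, its p adjusted for all tested genes by Benjamini and Hochberg, and a gene was called higher or lower at an adjusted p below 0.05.

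As background, proteins that enter the ER are folded by chaperones and by disulfide isomerases, and those that fail are drawn back to the cytosol and degraded. When unfolded proteins build up, the sensors IRE1 (Ern1), ATF6 and PERK (Eif2ak3) start the unfolded protein response, in which spliced XBP1 and cleaved ATF6 raise chaperones and degradation factors. PERK phosphorylates the translation factor eIF2, as other kinases do when amino acids run short, and this favours translation of ATF4, which raises Ddit3 (CHOP), Trib3 and genes for amino acid synthesis. Bone-forming cells secrete large amounts of collagen, a protein that is modified and folded in the ER.

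The labels were checked before the members were compared. Gsdmd (chr15:75734176-75739257 in mm39) stood at 13.5, 14.1 and 14.1 CPM in the WT libraries and 21.03, 23.6 and 23.004 CPM in those labelled cKO, so the gene that the label says was deleted was higher in every library labelled cKO (log2 fold change 0.69, SE 0.083, adjusted p = 2.27e-06). The deposited values are sums over the whole gene and cannot show whether floxed exons were lost, so each direction below rests on the label alone. Xist, an RNA of the inactive X chromosome, had 4, 0 and 2 counts in the WT libraries and 48762, 44817 and 51216 in those labelled cKO. Ddx3y, a gene of the Y chromosome, had 4785, 5455 and 4033 counts in WT and 0 in all 3 others. The groups therefore differed in the sex of the cells as well as in the label, although the methods describe sex-matched mice, and the 2 cannot be told apart. Of 20 macrophage markers, 19 were tested and all 19 were higher in the libraries labelled cKO, with a summed level of 1400 to 1573 CPM in WT and of 8019 to 8396 CPM in cKO. Cd163 had too few counts to be tested. Of 8 osteocyte markers, 3 were tested, of which none was higher and 2 were lower. The defining osteocyte markers were at or near 0, with Sost at 0 counts in every library and Dmp1 averaging 0.0344 CPM in WT and 0.0955 CPM in cKO. Of 9 osteoblast markers, 7 were tested, 2 were higher and 4 lower, with log2 fold changes from -0.67 to 2.01. Col1a1, the main collagen chain of bone, went from 5802 CPM in WT to 3650.03 CPM in cKO. Its partner chain Col1a2 did not pass (-0.091 on the log2 scale, adjusted p = 0.0917). All 9 fibroblast markers were tested, 4 were higher and 5 lower. Only Sdc1 of 8 B and plasma cell markers was tested, and was higher, from a mean of 297 CPM in WT to 339.6 CPM in cKO, while Mzb1, Igkc and Ms4a1 were at 0. Of 7 neutrophil markers, S100a8 and Camp were tested and higher, S100a8 from a mean of 1.07 CPM in WT to 3.29 CPM in cKO and Camp from 5.12 CPM in WT to 7.21 CPM in cKO. Many of these markers differed between the same 2 groups of libraries in which the members are compared below, and their part in the results was not tested. In bulk RNA a change in the share of a cell type and a change in RNA per cell cannot be told apart.

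Across the 34 members the changes were small and went both ways. By the edgeR test 8 members were higher in the libraries labelled cKO, 11 were lower, and 15 did not pass. Over all tested genes 20.1% were called higher and 19.2% lower, against 23.5% and 32.4% of the members. With upper quartile scaling in place of TMM the split over all genes went from 3445 higher and 3285 lower to 2799 higher and 4294 lower, and that of the members to 6 higher and 14 lower. A log2 fold change of at least 1 in size was reached by 0 members among those higher and by 1, Phgdh, among those lower, against 6.56% and 4.64% of all genes. In 13 members every library labelled cKO lay above every WT library and in 12 every one lay below, while 9 overlapped. Such separation was seen upward in 25.3% and downward in 23.9% of all genes. The median log2 fold change was 0.075 over the members and 0.0077 over all tested genes, whose middle part from the first to the third quartile spanned -0.22 to 0.27. The counting was deep for these genes, with a standard error below 0.1 on the log2 scale for 32 of 34 and a median of 0.048. Of the members with a difference near 0.1 in size Hspa5 passed, while Canx, Dnajb9, Dnajb11, Creld2, Eif2ak3 and Atf6 did not.

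**Figure D1:**
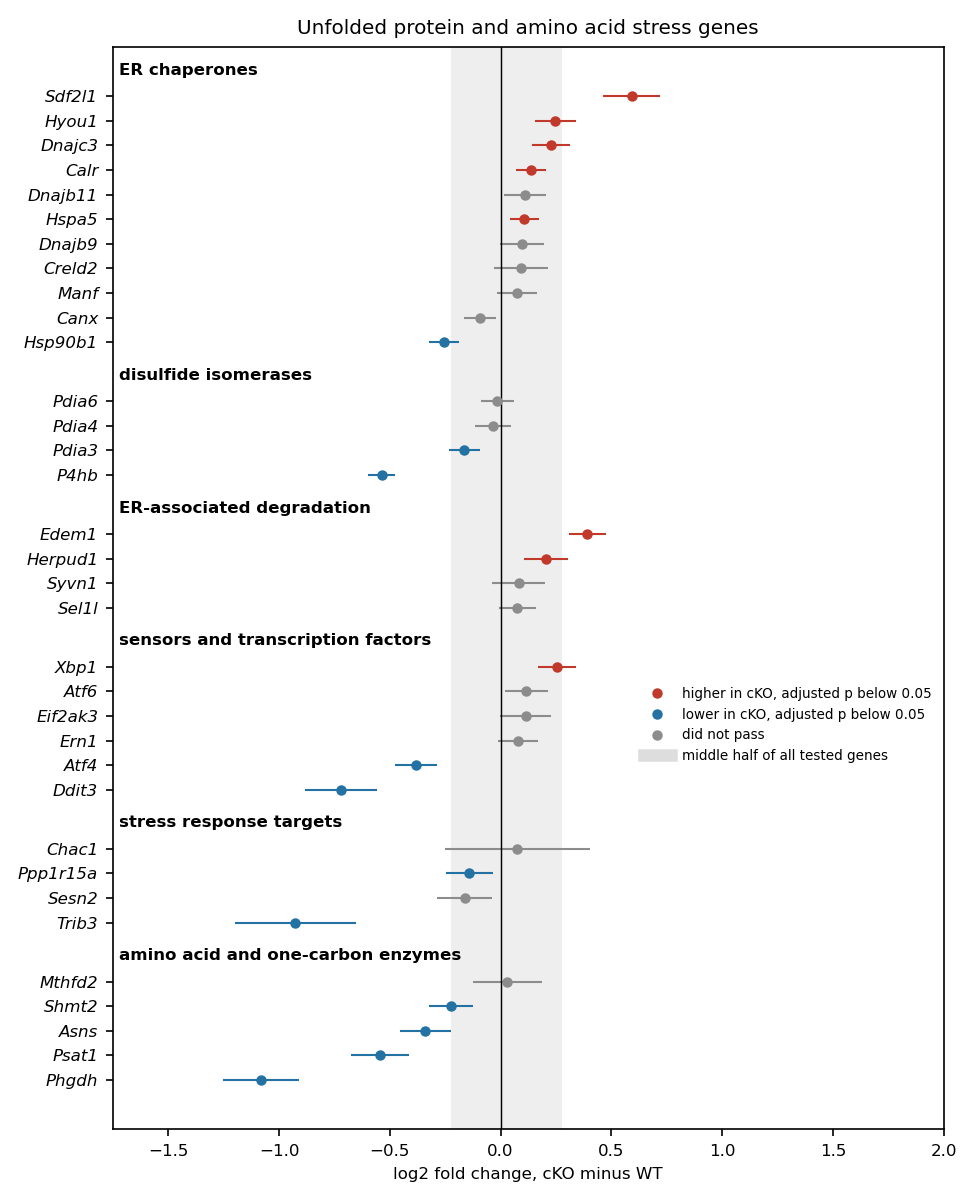
The log2 fold change of each of the 34 members is plotted on the horizontal axis, cKO minus WT, by role, with bars of 2 SE on either side and red, blue and grey for higher, lower and not passing. The grey band spans the quartiles of all 17146 tested genes, from -0.22 to 0.27, and the members farthest outside it are Sdf2l1 above and Phgdh, Trib3 and Ddit3 below.

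The ER chaperones held 5 of the 8 members that were higher and the ER-associated degradation genes 2, with Xbp1 as the eighth. The 11 members that were lower were 4 enzymes of amino acid and one-carbon metabolism, 2 stress response targets, the transcription factors Atf4 and Ddit3, 2 disulfide isomerases and the chaperone Hsp90b1. No member of the amino acid and one-carbon enzymes, the stress response targets or the disulfide isomerases was called higher. None of the degradation genes was called lower. Over all tested genes 20.1% were called higher and 19.2% lower. These groups hold 4 or 5 genes each, so the absence of calls in a given direction says little. The summed level of the 34 members was 10270.5 ± 107 CPM in WT and 9519.7 ± 149 CPM in the libraries labelled cKO, a ratio of 0.927.

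The promoters hold the elements through which this response is known to act, and these sequences are shown to set them beside the direction of each member. RefSeq promoters (GRCm38.p6, 250 bases before to 50 after the annotated start) were found for 31 of the 34 members. Hyou1, Manf and Atf6 had none. Both strands were searched for 4 motifs. The ER stress response element (ERSE), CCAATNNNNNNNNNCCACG, is bound by NF-Y together with ATF6 or XBP1, and ERSE-II is the variant ATTGGNCCACG. The unfolded protein response element TGACGTGG is bound by XBP1 and ATF6, and its reverse strand begins with the CCACG that ends both forms of ERSE. The C/EBP-ATF response element (CARE), TGATGNAA, is bound by ATF4 with a partner of the C/EBP family. Of 32851 promoters, 0.119% held an ERSE, 0.0365% an ERSE-II, 0.676% the unfolded protein response element and 3.97% a CARE.

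Exact matches to ERSE or ERSE-II were found in 10 members, of which 7 were ER chaperones, 1 a disulfide isomerase and 2 degradation genes. The 8 ERSE members were among 37 genes with this motif of 27025 in the promoter table. No member held TGACGTGG in its window, and 4 members held a CARE. The elements are printed in the direction of the motif, with its fixed letters in capitals and the free ones in lower case, and Hsp90b1 held 2.

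Hspa5 ERSE: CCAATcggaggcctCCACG
Calr ERSE: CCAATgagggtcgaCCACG
Canx ERSE: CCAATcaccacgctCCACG
Creld2 ERSE: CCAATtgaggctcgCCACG
Dnajc3 ERSE: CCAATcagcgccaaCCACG
Hsp90b1 ERSE, distal: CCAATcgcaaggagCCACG
Hsp90b1 ERSE, proximal: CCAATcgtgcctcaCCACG
Pdia6 ERSE: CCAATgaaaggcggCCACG
Syvn1 ERSE: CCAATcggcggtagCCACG
Dnajb11 ERSE-II: ATTGGcCCACG
Herpud1 ERSE-II: ATTGGgCCACG
Asns CARE: TGATGaAA
Chac1 CARE: TGATGcAA
Herpud1 CARE: TGATGcAA
Trib3 CARE: TGATGtAA

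For 4 members the 250 bases before the annotated start are given, on the strand of the gene, with each match in capitals. Hspa5 and Hsp90b1 are shown as chaperones with an ERSE whose levels went in opposite directions, Asns as an amino acid enzyme with a CARE, and Herpud1 because it held both an ERSE-II and a CARE. In GRCm38.p6 they lie at chr2:34771840-34772089 on the plus strand, chr10:86705445-86705694 on the minus strand, chr6:7693210-7693459 on the minus strand and chr8:94386179-94386428 on the plus strand.

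Hspa5: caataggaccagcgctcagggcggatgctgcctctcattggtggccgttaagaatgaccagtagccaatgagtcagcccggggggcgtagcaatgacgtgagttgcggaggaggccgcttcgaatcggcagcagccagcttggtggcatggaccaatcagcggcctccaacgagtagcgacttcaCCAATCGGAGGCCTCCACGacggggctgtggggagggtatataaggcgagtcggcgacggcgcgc
Hsp90b1: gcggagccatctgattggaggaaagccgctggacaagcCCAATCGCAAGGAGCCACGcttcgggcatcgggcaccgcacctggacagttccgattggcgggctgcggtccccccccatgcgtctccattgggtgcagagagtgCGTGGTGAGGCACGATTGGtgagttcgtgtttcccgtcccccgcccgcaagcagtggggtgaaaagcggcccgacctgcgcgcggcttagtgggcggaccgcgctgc
Asns: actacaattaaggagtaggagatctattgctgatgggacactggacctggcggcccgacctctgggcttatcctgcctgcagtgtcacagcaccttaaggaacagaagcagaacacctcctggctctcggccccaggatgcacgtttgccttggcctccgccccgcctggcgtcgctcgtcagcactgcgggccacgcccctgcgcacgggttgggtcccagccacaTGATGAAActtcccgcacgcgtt
Herpud1: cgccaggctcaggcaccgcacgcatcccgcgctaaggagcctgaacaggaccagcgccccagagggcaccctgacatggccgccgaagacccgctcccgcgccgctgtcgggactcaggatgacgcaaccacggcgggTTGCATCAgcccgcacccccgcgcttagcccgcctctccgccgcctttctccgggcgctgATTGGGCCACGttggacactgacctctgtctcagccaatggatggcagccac

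Members with the same element were called in both directions. Of the 10 members with an ERSE or ERSE-II, 4 were higher (Hspa5, Calr, Dnajc3 and Herpud1), 1 was lower (Hsp90b1) and 5 did not pass, with a median log2 fold change of 0.10. Outside the members, 20 tested genes held either element, of which 1 was higher and 3 were lower, with a median of -0.096. Of the 4 members with a CARE, Asns and Trib3 were lower, Herpud1 was higher and Chac1 did not pass. Among 324 other tested genes with a CARE 30.2% were higher and 16.7% lower. Of the tested members with a promoter entry 22.6% were higher and 35.5% lower, against 22.0% and 20.7% of other tested genes with one. A match of letters is a description of the window and does not show that a factor was bound.

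**Figure D2:**
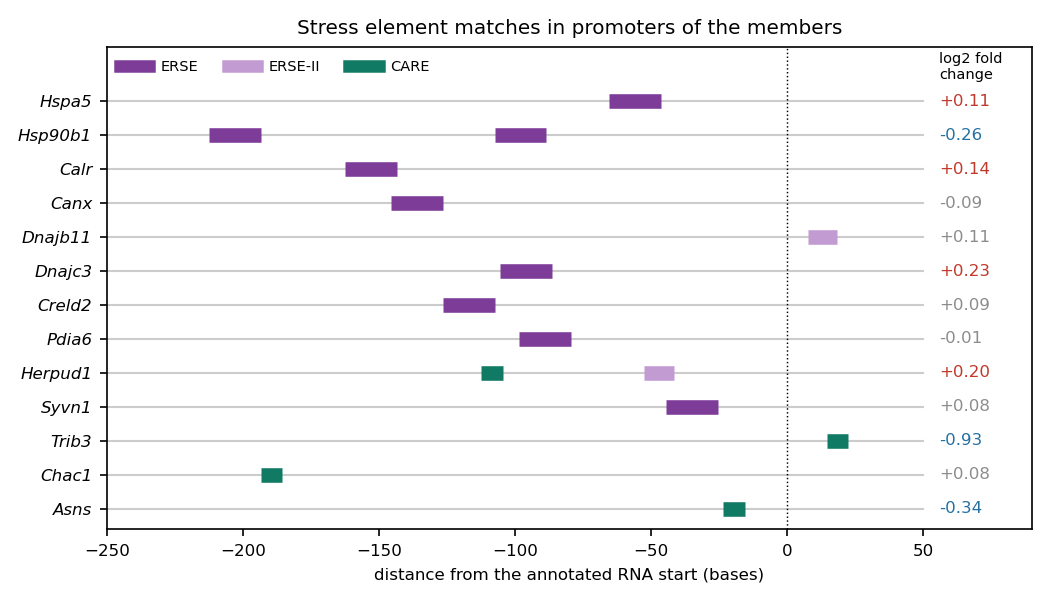
Each line is the promoter window of 1 member, drawn from 250 bases before to 50 bases after the annotated RNA start, with boxes for matches to ERSE (dark purple), ERSE-II (light purple) and CARE (green), and the log2 fold change of cKO over WT at the right, in red, blue or grey for higher, lower and not passing. ERSE lay upstream of the start in all 8 of its members, between 212 and 26 bases before it, while Hsp90b1 held 2 and its level was lower.

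ER chaperones hold unfolded proteins and help them fold. Of 11 such genes 5 were higher, 1 was lower and 5 did not pass, with a median log2 fold change of 0.11. Sdf2l1 (chr16:16948002-16950247), a partner of the ER DnaJ proteins that keeps unfolded chains from clumping, stood at 26.3, 25.9 and 25.7 CPM in the WT libraries and 37.8, 38.5 and 41.1 CPM in those labelled cKO. Its groups lay well apart, with the ratio of means at 1.51 (log2 fold change 0.59, SE 0.064, adjusted p = 6.36e-07). Hsp90b1 (chr10:86526073-86541373), the ER form of HSP90 also known as GRP94, stood at 1262, 1335 and 1303 CPM in the WT libraries and 1083, 1079 and 1106 CPM in those labelled cKO. It was the one chaperone of the 11 that was lower, at -0.26 on the log2 scale (SE 0.033, adjusted p = 6.54e-06). An antisense pseudogene, 1810014B01Rik, overlaps Hsp90b1 and held 1038 to 1957 counts, far below the counts of Hsp90b1 itself (0.28 on the log2 scale, adjusted p = 0.0512).

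The other 4 chaperones that were higher moved less. Hyou1, an HSP110-like partner that exchanges the nucleotide of BiP, had a mean of 236 ± 15.1 CPM in WT and 281 ± 2.84 CPM in the libraries labelled cKO (SD, n = 3 each) (log2 fold change 0.25, adjusted p = 0.000276). Dnajc3, known as p58IPK, a co-chaperone of BiP that also restrains eIF2 kinases, averaged 199 ± 6.52 CPM in WT and 233 ± 7.20 CPM in the libraries labelled cKO (SD, n = 3 each) (log2 fold change 0.23, adjusted p = 0.000309). Calr, which binds sugar chains on new glycoproteins, averaged 1243 ± 33.2 CPM in WT and 1368 ± 29.6 CPM in the libraries labelled cKO (SD, n = 3 each), at a log2 fold change of 0.14 (adjusted p = 0.00304). Hspa5, which encodes BiP, the main HSP70 of the ER and the usual gauge of ER stress, averaged 984 ± 11.3 CPM in WT and 1061 ± 13.8 CPM in the libraries labelled cKO (SD, n = 3 each), a difference of 0.11 on the log2 scale (SE 0.032, adjusted p = 0.0127). That small difference in Hspa5 stayed between 0.089 and 0.11 with single libraries left out, but its call was lost in some of these fits and under 1 scaling. It did not pass without WT replicate 1, WT replicate 2 or cKO replicate 3 (0.089, 0.092 and 0.098, adjusted p = 0.0883, 0.0668 and 0.0649), and under upper quartile scaling neither Hspa5 (0.039, adjusted p = 0.341) nor Calr (0.069, adjusted p = 0.112) passed, which left 3 chaperones higher and 2 lower.

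The 5 chaperones that did not pass differed by at most 0.11 on the log2 scale. Canx, the membrane-bound lectin related to Calr, stood at 720.1, 744 and 705 CPM in the WT libraries and 658, 677 and 697 CPM in those labelled cKO, all 3 below WT (log2 fold change -0.094, SE 0.037, adjusted p = 0.0519). It was lower without WT replicate 3 (-0.12, adjusted p = 0.00529) and with DESeq2, limma-voom, robust estimation and RLE scaling (adjusted p = 0.0171, 0.0288, 0.0438 and 0.0354). Dnajb11, a BiP partner of the HSP40 family, stood at 121, 119.6 and 119.7 CPM in the WT libraries and 122, 129.9 and 136 CPM in those labelled cKO, again without overlap (log2 fold change 0.11, SE 0.047, adjusted p = 0.0812), and was higher without cKO replicate 1 (0.15, adjusted p = 0.037) and with library size scaling (0.13, adjusted p = 0.035). Dnajb9, known as ERdj4, which brings BiP to substrates, stood at 51.7, 54.6 and 52.8 CPM in the WT libraries and 56.6, 56.7 and 56.7 CPM in those labelled cKO. It had an interval of 2 SE on either side of -0.0031 to 0.20 and an adjusted p of 0.142. Creld2, a secreted ER stress protein, stood at 36.3, 40.2 and 35.97 CPM in the WT libraries and 40.4, 39.2 and 40.5 CPM in those labelled cKO, and its groups overlapped (interval -0.030 to 0.22, adjusted p = 0.26). Manf, a chaperone-like factor that is released from the ER, stood at 126, 119 and 119 CPM in the WT libraries and 128, 124 and 132 CPM in those labelled cKO, and its groups also overlapped (interval -0.017 to 0.17, adjusted p = 0.222). Manf shares its span with Rbm15b on the same strand, which held 2311 to 2920 counts, and with Dcaf1 on the other, so its counts are less certain. Rbm15b did not pass (-0.070 on the log2 scale, adjusted p = 0.352) and Dcaf1 was lower (-0.31, adjusted p = 0.00232). The summed level of the 11 chaperones was 5044 ± 74.8 CPM in WT and 5102 ± 93.1 CPM in the libraries labelled cKO, a ratio of 1.01.

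**Figure D3:**
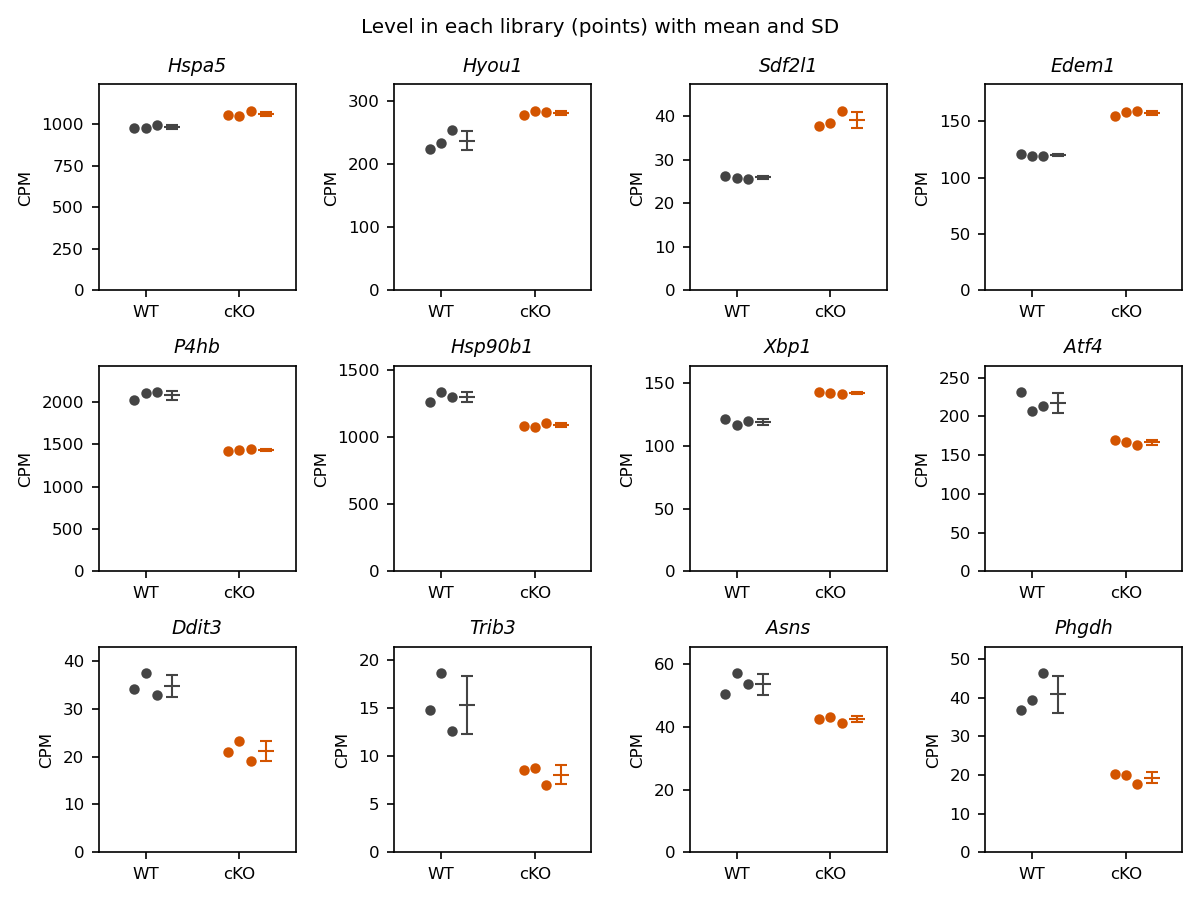
Each panel shows 1 member in CPM on an axis from 0, with points for the 3 WT libraries (grey) and the 3 labelled cKO (orange) and the mean with its SD beside them. The 12 are a selection from the members whose groups do not overlap, 13 of them above and 12 below WT. Of the 34 members 9 overlapped, and over all tested genes 25.3% lay above and 23.9% below. Hspa5, Hyou1, Sdf2l1, Edem1 and Xbp1 are higher in the libraries labelled cKO. P4hb, Hsp90b1, Atf4, Ddit3, Trib3, Asns and Phgdh are lower.

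Disulfide isomerases form and reshuffle the disulfide bonds of secreted proteins. None of 4 was higher, 2 were lower and 2 did not pass. P4hb (chr11:120451124-120464079), protein disulfide isomerase itself and also the beta subunit of the prolyl 4-hydroxylase that modifies collagen, was the member with the highest level, at 2017, 2097 and 2109.8 CPM in the WT libraries and 1418, 1429.6 and 1441 CPM in those labelled cKO. The libraries of each group lay within a coefficient of variation of 2.42% and 0.823%, and the means differed by a factor of 0.689 (log2 fold change -0.54, SE 0.031, adjusted p = 1.75e-10), the smallest p of all 34 members. Pdia3, known as ERp57, which works with Calr and Canx on glycoproteins, stood at 1053, 1065 and 1017 CPM in the WT libraries and 904, 931 and 965 CPM in those labelled cKO, lower in every library labelled cKO (log2 fold change -0.16, SE 0.036, adjusted p = 0.00128). Pdia4 stood at 297, 289 and 311 CPM in the WT libraries and 289, 288 and 299 CPM in those labelled cKO, and Pdia6, which acts on BiP-bound proteins and on the sensors, stood at 352, 356 and 355 CPM in the WT libraries and 343, 347 and 363 CPM in those labelled cKO. Both of these overlapped between groups, with intervals of -0.11 to 0.047 and -0.090 to 0.062 and adjusted p = 0.559 and 0.813, and the sign of Pdia6 turned with library size scaling (0.0079). Pdia4 was lower under upper quartile scaling (-0.10, adjusted p = 0.043). The summed level was 3773 ± 46.8 CPM in WT and 3006 ± 57.6 CPM in the libraries labelled cKO, a ratio of 0.797.

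ER-associated degradation returns misfolded proteins to the cytosol for the proteasome. Of 4 members 2 were higher and none was lower. Edem1 (chr6:108805602-108836317), a lectin that trims mannose and marks glycoproteins for disposal, stood at 121, 119 and 119 CPM in the WT libraries and 155, 158 and 159 CPM in those labelled cKO. The ratio of means was 1.31 and no library came near those of the other group (log2 fold change 0.39, SE 0.042, adjusted p = 5.44e-07). Herpud1 (chr8:95113066-95122005), a membrane scaffold of the degradation complex, stood at 61.96, 59.99 and 65.4 CPM in the WT libraries and 71.8, 71.2 and 72.7 CPM in those labelled cKO, higher in every library labelled cKO (log2 fold change 0.20, SE 0.050, adjusted p = 0.00309). Sel1l, the adaptor of the ubiquitin ligase HRD1, stood at 228, 223 and 240.3 CPM in the WT libraries and 240.5, 239 and 249.6 CPM in those labelled cKO, and Syvn1, which encodes HRD1, at 66.7, 59.6 and 71.4 CPM in the WT libraries and 69.2, 70.9 and 68.9 CPM in those labelled cKO. The groups of both overlapped, with intervals of -0.0074 to 0.16 and -0.039 to 0.20 and adjusted p = 0.169 and 0.318. Without WT replicate 3, Sel1l was higher (0.10, adjusted p = 0.0298). Syvn1 overlaps Mrpl49 on the other strand (867 to 1163 counts), which was lower (-0.24 on the log2 scale, adjusted p = 0.0175). The summed level of the 4 genes was 479 ± 17.3 CPM in WT and 542 ± 7.04 CPM in the libraries labelled cKO, a ratio of 1.13.

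Among the 6 sensors and transcription factors, the 3 sensor genes did not pass, Xbp1 was higher, and Atf4 and Ddit3 were lower. Ern1, which encodes the kinase and RNase IRE1 that splices Xbp1 RNA, stood at 90.2, 89.99 and 89.2 CPM in the WT libraries and 94.2, 93.4 and 96.8 CPM in those labelled cKO (log2 fold change 0.078, SE 0.045, adjusted p = 0.189). Atf6, the sensor that is cut in the Golgi to free a transcription factor, stood at 79.1, 83.9 and 83.4 CPM in the WT libraries and 90.9, 89.98 and 86.1 CPM in those labelled cKO (log2 fold change 0.12, SE 0.048, adjusted p = 0.0683). Eif2ak3, which encodes the eIF2 kinase PERK, stood at 42.9, 41.5 and 39.4 CPM in the WT libraries and 44.8, 43.4 and 45.7 CPM in those labelled cKO (log2 fold change 0.11, SE 0.057, adjusted p = 0.135). All 3 sensors had every library labelled cKO above every WT library, yet none passed, and of the alternatives run only library size scaling called Atf6 (0.14, adjusted p = 0.0296). Xbp1 (chr11:5470659-5475893), the transcription factor downstream of IRE1, averaged 119 ± 2.40 CPM in WT and 142 ± 0.763 CPM in the libraries labelled cKO (SD, n = 3 each) (log2 fold change 0.25, SE 0.042, adjusted p = 9.74e-05). The counts are per gene and do not separate the spliced from the unspliced form of Xbp1.

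Atf4 and Ddit3 went the other way. Atf4 (chr15:80139385-80141742), the transcription factor whose translation rises when eIF2 is phosphorylated, stood at 231, 206 and 213 CPM in the WT libraries and 169, 167 and 162 CPM in those labelled cKO. Every library labelled cKO lay below every WT library, with a ratio of means of 0.767 (log2 fold change -0.38, SE 0.046, adjusted p = 2.97e-06). Ddit3 (chr10:127126643-127132157), which encodes CHOP, a factor that acts late in the stress response, stood at 34.01, 37.3 and 32.9 CPM in the WT libraries and 20.9, 23.3 and 19.2 CPM in those labelled cKO. The ratio of means was 0.607, and the groups did not overlap (log2 fold change -0.72, SE 0.081, adjusted p = 1.15e-06). Ddit3 overlaps Mars1 on the other strand, which held 2772 to 3466 counts, more than the 870 to 1853 of Ddit3, and the strand setting of the counting is not given in the sources used here. Mars1 itself, a cytosolic methionyl-tRNA synthetase, did not pass, with means of 75.6 CPM in WT and 70.5 CPM in cKO (-0.099 on the log2 scale, adjusted p = 0.236).

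The stress response targets are genes that ATF4 and CHOP are known to raise. Of 4 members, 2 were lower and 2 did not pass. Trib3 (chr2:152179342-152185952), a pseudokinase that feeds back on ATF4 and CHOP, stood at 14.9, 18.7 and 12.6 CPM in the WT libraries and 8.60, 8.78 and 6.98 CPM in those labelled cKO. Its WT libraries spread most among the members, with a coefficient of variation of 19.8%, but lay above all 3 others (log2 fold change -0.93, SE 0.14, adjusted p = 2.76e-05). Ppp1r15a, known as GADD34, which brings a phosphatase to eIF2 and so ends the translation block, stood at 60.03, 59.7 and 55.2 CPM in the WT libraries and 53.9, 51.1 and 53.7 CPM in those labelled cKO (log2 fold change -0.14, SE 0.053, adjusted p = 0.0439). This call was close to the limit and did not pass with library size scaling (adjusted p = 0.0968), with no filter (0.0737), or without WT replicate 1 (0.101), WT replicate 2 (0.099), cKO replicate 1 (0.0803), cKO replicate 2 (0.173) or cKO replicate 3 (0.0891). Sesn2, a sestrin that restrains mTORC1, stood at 57.5, 59.9 and 64.3 CPM in the WT libraries and 50.001, 59.1 and 53.3 CPM in those labelled cKO, with 1 library labelled cKO inside the range of WT and an adjusted p just above the limit (log2 fold change -0.16, SE 0.063, adjusted p = 0.0502). Chac1, which breaks down glutathione, stood at 6.40, 8.87 and 6.52 CPM in the WT libraries and 7.98, 9.003 and 6.05 CPM in those labelled cKO, and its groups overlapped (log2 fold change 0.075, SE 0.16, adjusted p = 0.764). Chac1 held the fewest counts of the members, 253 to 440 a library, and its interval of -0.25 to 0.40 was the widest. DESeq2, limma-voom, robust estimation and RLE scaling each called Sesn2 lower, with adjusted p = 0.0449, 0.049, 0.0349 and 0.0428, and so did leaving out WT replicate 1 (0.0305) or cKO replicate 2 (0.0153). Sesn2 was also lower with upper quartile scaling (0.00578), no filter (0.0289), at least 10 counts in every library (0.0477), halved counts (0.043) and replicate number as a block (0.045).

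The enzymes of amino acid and one-carbon metabolism had the largest median shift of the 6 role groups. Of 5 members 4 were lower and none was higher, with a median log2 fold change of -0.34. Phgdh (chr3:98220486-98247306), the first enzyme of serine synthesis from glucose, stood at 36.9, 39.4 and 46.3 CPM in the WT libraries and 20.3, 19.9 and 17.7 CPM in those labelled cKO. The ratio of means was 0.472, the largest change of the 34 members (log2 fold change -1.08, SE 0.086, adjusted p = 1.25e-08), and it lay between -1.17 and -0.99 over the alternatives run. Psat1 (chr19:15882042-15924701), the next enzyme of that route, stood at 48.3, 52.8 and 47.6 CPM in the WT libraries and 35.7, 35.2 and 31.3 CPM in those labelled cKO, also without overlap (log2 fold change -0.54, SE 0.066, adjusted p = 2.78e-06). Asns, which makes asparagine and is a standard ATF4 target, averaged 53.6 ± 3.36 CPM in WT and 42.4 ± 0.989 CPM in the libraries labelled cKO (SD, n = 3 each) (log2 fold change -0.34, adjusted p = 0.000133). Shmt2, the mitochondrial enzyme that turns serine into glycine and a one-carbon unit, averaged 83.5 ± 2.64 CPM in WT and 71.4 ± 2.78 CPM in the libraries labelled cKO (SD, n = 3 each) (log2 fold change -0.22, adjusted p = 0.00149). Ndufa4l2 overlaps Shmt2 on the other strand with 10751 to 17750 counts, several times the 2872 to 4127 of Shmt2, and was itself lower (-0.39 on the log2 scale, adjusted p = 2.08e-06). With the strand setting not given, it is not known how reads from the span shared by Ndufa4l2 and Shmt2 were counted, so the Shmt2 difference is less certain. Mthfd2, the next mitochondrial one-carbon enzyme, stood at 23.04, 20.3 and 21.4 CPM in the WT libraries and 21.1, 22.6 and 22.4 CPM in those labelled cKO, and its groups overlapped (interval -0.13 to 0.19, adjusted p = 0.8). The sign of Mthfd2 turned under upper quartile scaling (-0.038). The summed level of the 5 enzymes was 249 ± 8.32 CPM in WT and 189 ± 4.50 CPM in the libraries labelled cKO, a ratio of 0.760.

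Levels were also compared between members per kilobase of gene length, as CPM per kb in WT. P4hb was first at 725, followed by Calr at 432, Pdia3 at 333, Hsp90b1 at 322 and Hspa5 at 233. In the libraries labelled cKO the same 5 genes led, at 499.7 for P4hb, 475 for Calr, 297 for Pdia3, 270.1 for Hsp90b1 and 251 for Hspa5, so P4hb and Calr lay closer together than in WT. At the other end of the range in WT stood Chac1 at 4.44, Mthfd2 at 6.19, Eif2ak3 at 6.85 and Trib3 at 7.24 CPM per kb. Atf4, at 91.9, lay above the 3 sensors, with Ern1 at 10.99 and Atf6 at 8.90.

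The rest of the pathway was read from lists of other genes with the same roles, and the values are group means. Over all tested genes 20.1% were called higher and 19.2% lower. Of 20 other genes of ER folding and oxidation 6 were higher and 8 lower, with log2 fold changes from -1.69 to 0.996 and a median near 0. Ero1a, the oxidase that recharges protein disulfide isomerase and responds to hypoxia, went from 876 CPM in WT to 271 CPM in cKO (-1.69 on the log2 scale, adjusted p = 2.56e-16), and Txndc5, a further disulfide isomerase, from 524 CPM in WT to 384 CPM in cKO (-0.45 on the log2 scale, adjusted p = 3.87e-08). Of 21 other degradation genes 7 were higher and 2 lower (median 0.049). The 2 with the smallest p were Edem2, a mannose-trimming relative of Edem1, from 35.2 CPM in WT to 48.9 CPM in cKO (0.47 on the log2 scale, adjusted p = 5.05e-06), and Derl2, a channel component, from 51.3 CPM in WT to 62.3 CPM in cKO (0.28 on the log2 scale, adjusted p = 0.000189). Upper quartile scaling raised the number lower in this list to 5, and without cKO replicate 1 it was 1. Of 20 genes of ER translocation and glycosylation 3 were higher and 8 lower (median -0.090). These counts moved when single libraries were left out. The number higher was 1 without WT replicate 1, and the number lower was 5 without cKO replicate 1 and 4 without cKO replicate 2. Upper quartile scaling left 1 higher. Sec11c, a signal peptidase subunit, went from 23.7 CPM in WT to 37.8 CPM in cKO (0.67 on the log2 scale, adjusted p = 3e-07) and Dad1, a subunit of the oligosaccharyltransferase, from 108 CPM in WT to 83.7 CPM in cKO (-0.36 on the log2 scale, adjusted p = 2.99e-05). Of 17 other sensor and eIF2 genes 16 were tested, 3 were higher and 5 lower (median -0.069). The number higher was 1 without WT replicate 1, cKO replicate 2 or cKO replicate 3 and under upper quartile scaling, and the number lower was 3 without cKO replicate 1 or cKO replicate 2. Ppp1r15b, the constitutive partner of the eIF2 phosphatase, went from 102 CPM in WT to 125 CPM in cKO (0.30 on the log2 scale, adjusted p = 0.000176) and Eif2s1, the eIF2 alpha subunit, from 80.4 CPM in WT to 69.1 CPM in cKO (-0.22 on the log2 scale, adjusted p = 0.00168). Ern2 had 0 counts and was not tested.

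The other genes that ATF4 and CHOP are known to raise did not move together. Of 23 such genes 22 were tested, 5 were higher and 10 lower, and 3 and 5 of these reached a log2 fold change of 1 in size, with a median of -0.036. Aldh1l2, a mitochondrial folate enzyme, went from 87.3 CPM in WT to 14.8 CPM in cKO (-2.56 on the log2 scale, adjusted p = 1.98e-14). Stc2, a secreted glycoprotein, went from 16.3 CPM in WT to 4.18 CPM in cKO (-1.96 on the log2 scale, adjusted p = 7.58e-10). Nupr1, a stress-induced nuclear protein, went from 175 CPM in WT to 75.9 CPM in cKO (-1.21 on the log2 scale, adjusted p = 2.45e-11), and Vldlr, a lipoprotein receptor, from 192 CPM in WT to 87.1 CPM in cKO (-1.14 on the log2 scale, adjusted p = 2.63e-12). Slc7a11, the cystine transporter, went the opposite way, from 85.2 CPM in WT to 243 CPM in cKO (1.51 on the log2 scale, adjusted p = 2.33e-13). Fgf21 fell under the filter on low counts. The members and this list were both counted against 20.1% higher and 19.2% lower over all genes.

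The cytosolic aminoacyl-tRNA synthetases, which load amino acids onto tRNA and many of which are ATF4 targets, were called in 1 direction. Of 20 genes 14 were lower and none was higher, with a median log2 fold change of -0.20. For this list and those that follow, the shares over all tested genes were 20.1% higher and 19.2% lower. Cars went from 56.9 CPM in WT to 40.8 CPM in cKO (-0.48 on the log2 scale, adjusted p = 8.45e-07) and Gars from 140.3 CPM in WT to 103 CPM in cKO (-0.44 on the log2 scale, adjusted p = 9.77e-07). Of 17 genes of collagen folding and modification 16 were tested, 3 were higher and 9 lower (median -0.19). P4ha2, an alpha subunit that pairs with P4hb in prolyl 4-hydroxylase, went from 614 CPM in WT to 364 CPM in cKO (-0.75 on the log2 scale, adjusted p = 1.88e-11). Plod1, a lysyl hydroxylase, went from 455 CPM in WT to 317 CPM in cKO (-0.52 on the log2 scale, adjusted p = 2.98e-09), while P3h2, a prolyl 3-hydroxylase of low level, went up from 5.67 CPM in WT to 14.8 CPM in cKO (1.39 on the log2 scale, adjusted p = 2.22e-07). Colgalt2 was not tested. Of 10 cytosolic heat shock genes 1 was higher and 6 were lower (median -0.19), among them Hsp90aa1, which went from 652 CPM in WT to 453 CPM in cKO (-0.53 on the log2 scale, adjusted p = 8.89e-09), and Hsp90ab1, from 1525 CPM in WT to 1164 CPM in cKO (-0.39 on the log2 scale, adjusted p = 1.26e-06), the cytosolic counterparts of Hsp90b1.

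**Figure D4:**
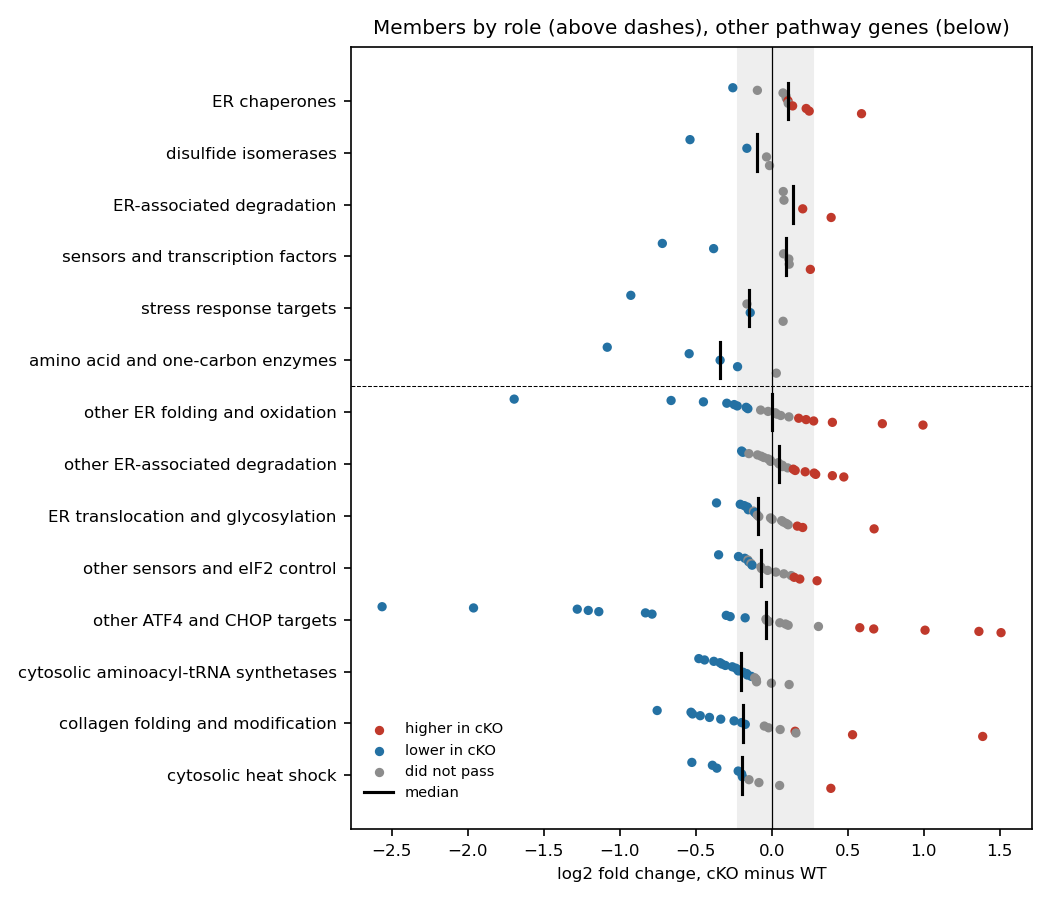
Points are the log2 fold changes of tested genes, cKO minus WT, in the 6 role groups of members above the dashed line and in 8 lists of other pathway genes below it, red for higher, blue for lower and grey for not passing, with a bar at the median and a band for the quartiles of all genes. The tRNA synthetases, the amino acid enzymes, the disulfide isomerases and the stress response targets hold no red points, while 20.1% of all tested genes were called higher. The other ATF4 and CHOP targets spread from -2.56 to 1.51.

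**Figure D5:**
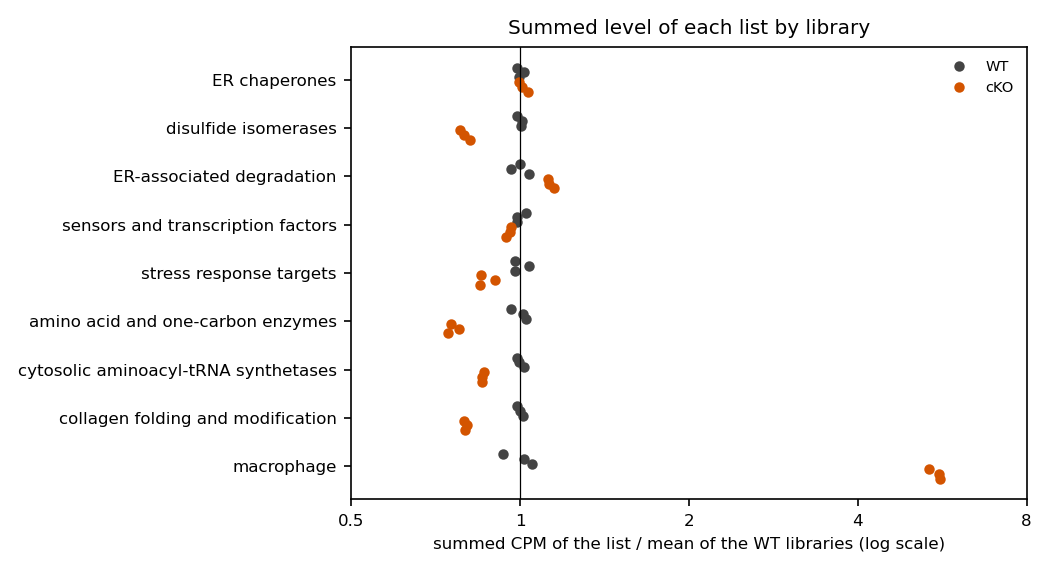
The summed CPM of each list in each library is divided by the mean of the WT libraries and drawn on a log axis, grey for WT and orange for cKO. The ratio of means was 0.760 for the amino acid enzymes, 0.797 for the disulfide isomerases, 1.01 for the ER chaperones and 1.13 for the degradation genes, against 5.51 for the macrophage markers.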

How the data were processed

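The data were 6 directional RNA libraries, grouped by the genotype in the labels and sequenced as 150 bp read pairs. The authors trimmed the reads, aligned them to mm39 with HISAT2 2.0.5, counted them per gene with featureCounts (1.55.0-p3 in the submitters' processing notes, another release in the methods) and deposited raw counts with a gene length in bases. The strand setting and annotation release are not given in the sources used here.

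Counts were analysed with edgeR 4.0.16 in R 4.3.3 (filterByExpr, TMM, glmQLFit, glmQLFTest, genotype as the only term, Benjamini-Hochberg over 17146 genes). The common biological coefficient of variation was 8.36%. Replicates of a group differed by more than sampling noise (chi-square per gene 4.88 to 13.9). No library was therefore taken for a copy of another, and all 6 libraries were kept. This does not show whether they came from separate mice. A SE is the log2 fold change divided by the root of the F statistic, and intervals are 2 SE on either side. DESeq2 1.42.0, limma-voom (limma 3.58.1), other scalings and filters, halved counts, a replicate block and each library left out were alternatives. The procedure was tested on simulated data. Motifs were searched with Python 3.11.15. Gene coordinates are those of the deposited table in mm39.

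The members and lists were chosen with earlier results of these data known. Values of every library are given for called members with a log2 fold change of at least 1 in size, for the 2 members with the smallest p in each role group and for those that did not pass. Of each list of other genes the 2 with the smallest p are named, plus any called with a log2 fold change of at least 1 in size, up to 5. Markers and Gsdmd are named as checks, and Xist, Ddx3y and the genes overlapping a member were picked with their values in view.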

Additional observations from a re-analysis of the deposited data

How the results depend on the processing

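Over 16 alternative settings the log2 fold changes of the 34 members gave 502 alternative values with the same call and direction, 22 that newly passed the threshold, 13 that no longer passed and 7 of the opposite sign. The reversals were of Chac1, Mthfd2 and Pdia6, none of which passed. Mthfd2 was at -0.038 with upper quartile scaling and Pdia6 at 0.0079 with library size only, and with single libraries left out they ranged from -0.022 to 0.066 and from -0.038 to 0.0041, and Chac1 from -0.055 to 0.24. With DESeq2, limma-voom, robust estimation, RLE scaling and upper quartile scaling 2 ER chaperones were lower in place of 1, the added gene being Canx. Upper quartile scaling left 3 ER chaperones higher, 5 other degradation genes lower, 1 translocation and glycosylation gene higher and 1 other sensor or eIF2 gene higher. With library size only, 2 sensors and transcription factors were higher and 1 stress response target lower. With a log2 fold change of at least 1 required, 0 members were higher and 1 was lower. Leaving out 1 library at a time, the numbers lower ranged from 1 to 2 for ER chaperones, stress response targets and other degradation genes, from 4 to 10 for translocation and glycosylation and from 3 to 5 for other sensors and eIF2 control, and the numbers higher in the last 2 lists from 1 to 3. The cause of these moves was not tested.

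WT and cKO libraries of the same number did not deviate together (correlations -0.00098, -0.0038 and -0.018), so the numbers gave no sign of pairing. The labels do not say whether such libraries were prepared together, and these correlations cannot exclude it. With replicate number as a block (replicate block) 3298 genes were higher and 3098 lower, 8 and 11 members among them, Sesn2 was lower at -0.16 (adjusted p = 0.045) and Ppp1r15a no longer passed at -0.14 (adjusted p = 0.0688). The largest SE were those of Chac1 and Trib3 (0.16 and 0.14), whose libraries also spread most within a group, with coefficients of variation of up to 19.5% and 19.8%. Halving the counts left both calls as they were, but this adds no sampling noise and does not imitate lower depth.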
